A study of Rattus norvegicus with 12 samples.

Results

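The miRNAs described here are 7 members of the miR-17, miR-18 and miR-19 seed families, made from the miR-17-92 and miR-106b-25 clusters. They were chosen by name among the 758 miRNAs of a rat miRNA array, and all 7 were on the array. They are rno-miR-17-5p, rno-miR-18a-5p, rno-miR-19a-3p, rno-miR-19b-3p, rno-miR-20a-5p, rno-miR-93-5p and rno-miR-106b-5p. The array gave a signal for 5 of them in the rat heart. miR-18a-5p and miR-19a-3p were detected on no array.

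The tissue came from the left ventricle of 12 male Wistar rats, 4 per group, with 1 array per rat and a single dye. In the MI group, which the labels name the chronic heart failure group, the left anterior descending artery of the heart was tied off, and the rats later received saline. The YQFM group had the same ligation and then received Yiqifumai powder injection, a preparation of botanical drugs, at 5 mg/kg per day for 28 days. Sham rats were operated without the ligature and received saline. In the Sham and MI groups saline was given daily over the same 28 days. Per the paper, the rats were kept for 4 weeks before the treatment groups were formed. The study sampled the ventricle near the infarct, so each array measured a mixture of cell types. In such bulk samples fewer cells of a type and less RNA per cell cannot be told apart. The labels do not tie rats to litters or surgery days.

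MiRNAs are short RNAs that guide the silencing of messenger RNAs, and bases 2 to 8 of a miRNA, the seed, largely set which messenger RNAs it pairs with. The miR-17-92 cluster is transcribed as a single precursor RNA that is cut into several mature miRNAs, and it is known for promoting cell proliferation and survival in development and cancer. In the heart, miR-17-92 is known to support cardiomyocyte proliferation, and miR-18a and miR-19 have been connected with matrix proteins and heart failure of old age. The members of the miR-17 seed family share many predicted targets, among them cell cycle inhibitors.

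The mature sequences are shown because the families are defined by them and because the members differ by few bases, which matters for an array that reads them by hybridization. All 7 members were matched by name in RefSeq (GRCr8), and the capitals mark the seed, 5′ to 3′.

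miR-17-5p: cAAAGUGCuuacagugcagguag
miR-20a-5p: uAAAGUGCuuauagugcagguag
miR-93-5p: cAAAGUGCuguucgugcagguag
miR-106b-5p: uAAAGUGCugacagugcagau
miR-18a-5p: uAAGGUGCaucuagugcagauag
miR-19a-3p: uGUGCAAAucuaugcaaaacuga
miR-19b-3p: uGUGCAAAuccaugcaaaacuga

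The seed AAAGUGC was common to 4 members, miR-17-5p, miR-20a-5p, miR-93-5p and miR-106b-5p. Of the RefSeq rat miRNAs, 1 other, miR-20b-5p, carried it. The seed AAGGUGC belonged to miR-18a-5p alone. Counting positions from 1 at the 5′ end, miR-18a-5p and miR-20a-5p differed inside the seed by G4A, with the base of miR-18a-5p written first. miR-19a-3p and miR-19b-3p had the seed GUGCAAA and differed over their whole length by a single base, U11C. miR-17-5p and miR-20a-5p differed by C1U and C12U, both outside the seed.

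The genes lie in 3 clusters. In the array's annotation (rn4), the sites paired by the probes of miR-18a-5p (chr15:99853892-99853909), miR-19a-3p (chr15:99854069-99854088), miR-20a-5p (chr15:99854210-99854227) and miR-19b-3p (chr15:99854376-99854395) lay on the plus strand within 504 bases. On the X chromosome, minus strand, the annotation placed miR-17-5p (chrX:139741462-139741476) and a second copy of miR-19b-3p (chrX:139740996-139741015). In RefSeq, miR-17-5p is made from both Mir17 on chromosome 15 and Mir106a on the X chromosome, and miR-19b-3p from Mir19b1 and Mir19b2. The array therefore cannot tell apart the product of the 2 clusters for these members. miR-93-5p (chr12:17608195-17608209) and miR-106b-5p (chr12:17608398-17608413) were on the minus strand of chromosome 12, inside the protein-coding gene Mcm7, which encodes a subunit of the replicative helicase.

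Each member was read by 2 probes complementary to its 3′ part. Of the 14 probes, 5 were detected on all 12 arrays, 2 on some and 7 on none. The probes of 20 bases for miR-19a-3p and miR-19b-3p are shown because they read near-identical miRNAs. The capital marks the base opposite position 11 of the miRNA.

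miR-19a-3p probe: tcagttttgcatAgatttgc
miR-19b-3p probe: tcagttttgcatGgatttgc

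The miR-19b-3p probe was above background on all 12 arrays. The miR-19a-3p probe, with 1 mismatch to miR-19b-3p, was detected on none. The signal of miR-19b-3p was therefore not seen on the probe of its closest relative. The 19-base miR-19b-3p probe, which has no mismatch, was also detected on no array. How well the array separates the 2 miRNAs can thus not be read from these probes. On all arrays the scaled signal of miR-19a-3p lay between -2.06 and 0.342 and that of miR-18a-5p between -1.58 and 0.0068, around the background level of 0, and the authors' table lists both at its minimum of 0.1 throughout. Neither was tested, and these arrays give no comparison between groups for them. The probes of miR-17-5p and miR-20a-5p likewise differ from each other's miRNA by 1 base. Both miRNAs were detected, and how much of either signal came from the other was not tested.

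Signals are means over the spots and probes of a miRNA, in arbitrary units, after the arrays had been brought to a common 75th percentile of the 201 miRNAs that every array detected. They can be compared between arrays for a miRNA and not between miRNAs, because probes differ in efficiency. The source name of MI replicate 4 and of Sham replicate 4 gives another group than their title, description and group entry, which were followed here. The arrays lay on 3 slides: MI replicates 1 to 3 on slide 1, MI replicate 4 and YQFM replicate 1 on slide 2, and all Sham arrays with YQFM replicates 2 to 4 on slide 3. Each array detected between 211 and 268 miRNAs, with the lowest number in MI replicate 3. Of 6 cardiomyocyte miRNAs, 4 were detected on all arrays, miR-208a-3p on 1 array and miR-208b-3p on none. Of 4 miRNAs of liver, brain and islets, 0 were detected.

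miR-19b-3p, the detected member of the miR-19 family, had the largest differences from Sham among the 5 members, in both MI and YQFM. In Sham hearts its scaled signal was 36.2, 33.7, 42.0 and 40.8 in replicates 1 to 4. In MI hearts it was 34.4, 20.98, 25.99 and 32.5. In YQFM hearts it was 27.8, 24.5, 28.8 and 31.5. All YQFM values lay below all Sham values, and 3 of the 4 MI values did, with MI replicate 1 just above the lowest Sham array.

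Averaged over 4 rats, miR-19b-3p read 38.2 ± 3.90 in Sham hearts, against 28.5 ± 6.16 after ligation alone and 28.1 ± 2.92 with YQFM (mean ± SD). For MI against Sham the log2 ratio was -0.44 with a standard error of 0.16 and a 95% confidence interval from -0.79 to -0.09. Its unadjusted p was 0.017 and its adjusted p 0.0868 (limma over all 12 arrays, Benjamini-Hochberg over 261 miRNAs), so it did not pass the threshold of 0.05. An exact two-sided permutation test of the same 8 values gave p = 0.0571, where the smallest possible value is 0.0286. This log2 ratio, which corresponds to a value 26.5% lower, exceeded the SD of either group on the log2 scale (0.15 in Sham and 0.33 in MI) but did not hold after correction. Without MI replicate 4, 1 of the 2 arrays with conflicting labels, the log2 ratio was -0.52 and the adjusted p 0.0433, and without both such arrays -0.48 and 0.108.

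For miR-19b-3p the means of the YQFM and MI hearts lay close together. The log2 ratio of YQFM against MI was 0.0037, with a confidence interval from -0.35 to 0.35 and an adjusted p of 0.991. A difference of up to 0.35 in either direction could thus not be told from 0 with 4 rats per group. For YQFM against Sham the log2 ratio was -0.44 (95% confidence interval -0.79 to -0.09, unadjusted p = 0.0177, limma), with an adjusted p of 0.723. The exact permutation test gave p = 0.0286, the smallest possible. Without the 2 arrays with conflicting labels, the log2 ratio of miR-19b-3p was 0.076 for YQFM against MI and -0.41 for YQFM against Sham, with adjusted p of 0.872 and 0.561 (limma). This comparison and the MI against Sham comparison share the Sham arrays, so their values are not independent of each other.

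**Figure D1:**
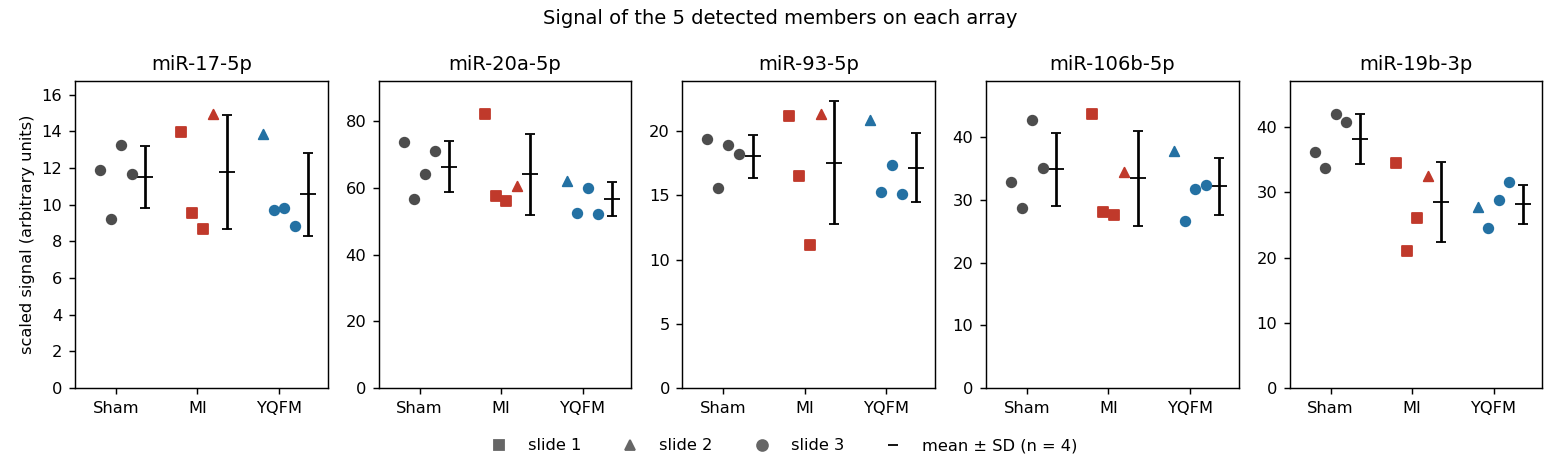
Scaled signal (arbitrary units, vertical axis from 0, own scale in each panel) of the 5 detected members on each of the 12 arrays, by group, with the slide given by the marker and the mean ± SD of 4 arrays as a bar. For miR-19b-3p the YQFM arrays lie between 24.5 and 31.5, all below the Sham arrays at 33.7 to 42.0, while for the 4 miR-17 seed members the 3 groups overlap.

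The slide matters for miR-19b-3p because slide 1 held MI arrays alone and slide 3 no MI array. On slide 3 the 3 YQFM arrays lay below the 4 Sham arrays without overlap, with a log2 difference of -0.44 (exact p = 0.0571, the smallest this design can give). In the limma fit of slide 3 alone its adjusted p was 0.479. The share of all tested miRNAs that separated in this way on slide 3 is not given here. On slide 2, YQFM replicate 1 differed from MI replicate 4 by -0.23. With the slide as a fixed block, which leaves this single pair of arrays to connect MI with the other groups, the log2 ratio of MI against Sham was -0.21 and that of YQFM against Sham remained -0.44. Slide and group can be told apart for YQFM against Sham but only through those 2 arrays for MI.

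**Figure D2:**
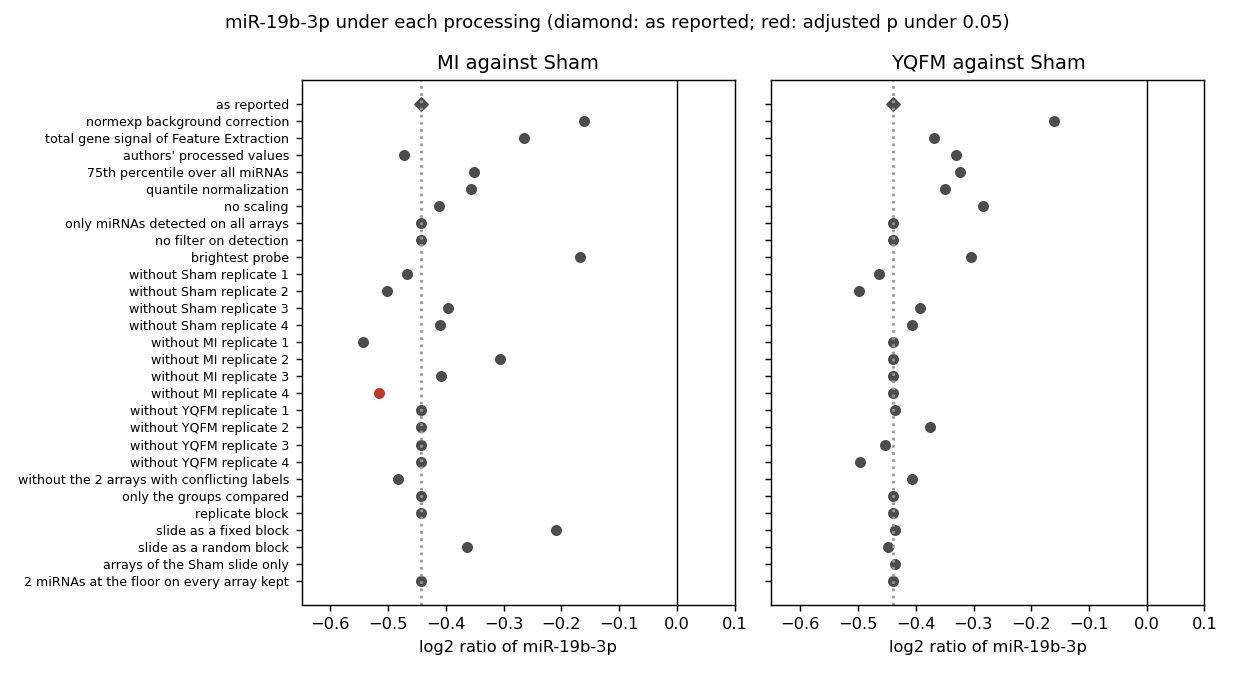
log2 ratio of miR-19b-3p (horizontal axis) against Sham, for MI (left) and YQFM (right), as reported (diamond) and under each other processing of the arrays (rows). The values lie below 0 throughout, from -0.54 to -0.16 for MI and from -0.50 to -0.16 for YQFM, and a single one, without MI replicate 4, has an adjusted p under 0.05 (red).

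Of the 2 miR-19b-3p probes, the 20-base probe carried the signal, with 62.7 to 76.5 in Sham, 40.1 to 63.0 in MI and 45.3 to 58.2 in YQFM. Relative to Sham, its log2 difference was -0.42 in MI and -0.42 in YQFM. This used the scaling from the means over probes. With every miRNA read and scaled by its brightest probe, miR-19b-3p had -0.17 for MI against Sham (adjusted p = 0.363, limma). The median of all tested miRNAs was then 0.14, so the size of the difference depends on the processing. The 19-base probe was detected on no array.

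Markers of the cell types in the tissue are given beside miR-19b-3p as sums over each list. The summed scaled signal of the 4 erythrocyte miRNAs ranged from 196 to 249 in Sham, 160 to 211 in MI and 163 to 198 in YQFM, with miR-144-3p and miR-144-5p not detected. Most of this sum was miR-486, at 195 to 248 in Sham, 159 to 204 in MI and 162 to 184 in YQFM. Its YQFM values thus lay below its Sham values without overlap, as for 6.13% of the tested miRNAs. Its log2 ratio to Sham was -0.26 in MI and -0.32 in YQFM (adjusted p = 0.189 and 0.723, limma). miR-451-5p was detected on 6 arrays. The 6 cardiomyocyte miRNAs summed to 10048 to 13402 in Sham, 9410 to 11786 in MI and 9206 to 11481 in YQFM. The 5 fibroblast miRNAs summed to 850 to 1115 in Sham, 960 to 1641 in MI and 950 to 2070 in YQFM. The largest part of this sum by group mean, miR-29b-3p, had a log2 ratio of -0.00031 for MI against Sham. The other 4 fibroblast miRNAs had higher ratios, 0.79 for miR-21-5p, 0.73 for miR-199a-5p, 0.62 for miR-214-3p and 0.56 for miR-199a-3p, with adjusted p from 0.162 to 0.337 (limma). The 2 endothelial miRNAs summed to 563 to 733, 707 to 941 and 575 to 712, and the 2 smooth muscle miRNAs to 502 to 611, 381 to 604 and 431 to 551. The 6 leukocyte miRNAs summed to 283 to 323, 278 to 354 and 270 to 323, with miR-142-3p and miR-142-5p not detected. Among them miR-146b-5p, detected on 5 arrays, had a log2 ratio of 0.88 for MI against Sham (adjusted p = 0.106, limma). Those of miR-223-3p, miR-150-5p and miR-155-5p were -0.11, -0.03 and 0.014. The summed ranges of the 3 groups overlapped in each of these lists, and 0 of their miRNAs passed the test in any comparison (limma). The part of these cells in the miR-19b-3p values was not tested.

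miR-20a-5p, a miR-17 seed member of the chromosome 15 cluster, was detected by both of its probes on all 12 arrays. Its scaled signal was 73.7, 56.6, 64.3 and 71.1 in Sham, 82.2, 57.5, 56.2 and 60.7 in MI, and 62.2, 52.6, 60.0 and 52.1 in YQFM. The highest array was MI replicate 1 and the groups overlapped. Against Sham, the log2 ratio was -0.06 in MI (adjusted p = 0.852, limma) and -0.22 in YQFM (adjusted p = 0.723, limma). Between YQFM and MI it was -0.16 (adjusted p = 0.669, limma). Its 2 probes gave -0.23 and -0.21 for YQFM against Sham.

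miR-17-5p, the namesake of the family, was detected on 11 of 12 arrays and missed detection in MI replicate 3. It read 11.9, 9.24, 13.3 and 11.6 in Sham, 14.0, 9.57, 8.70 and 14.95 in MI, and 13.9, 9.72, 9.82 and 8.86 in YQFM. Within each group the arrays spread over most of the range of all 12. The log2 ratio was 0.0092 for MI against Sham, with a confidence interval from -0.43 to 0.45, and -0.14 for YQFM against MI. Its 16-base probe carried the detection.

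miR-93-5p and miR-106b-5p, the products of the chromosome 12 cluster, were detected on every array. miR-93-5p read 19.4, 15.6, 18.9 and 18.2 in Sham, 21.2, 16.5, 11.2 and 21.3 in MI, and 20.9, 15.3, 17.3 and 15.1 in YQFM. MI replicate 3, the array with the fewest detected miRNAs, was the lowest of all. miR-93-5p in MI had a log2 ratio to Sham of -0.08, with a confidence interval from -0.51 to 0.34, and in YQFM a log2 ratio to MI of 0.000046, with one from -0.42 to 0.42. miR-106b-5p read 32.9, 28.8, 42.7 and 35.1 in Sham, 43.7, 28.02, 27.5 and 34.5 in MI, and 37.8, 26.6, 31.8 and 32.4 in YQFM. For miR-106b-5p the highest arrays of the Sham and MI groups differed little, and the log2 ratios were -0.07, -0.04 and -0.11 for MI against Sham, YQFM against MI and YQFM against Sham.

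**Figure D3:**
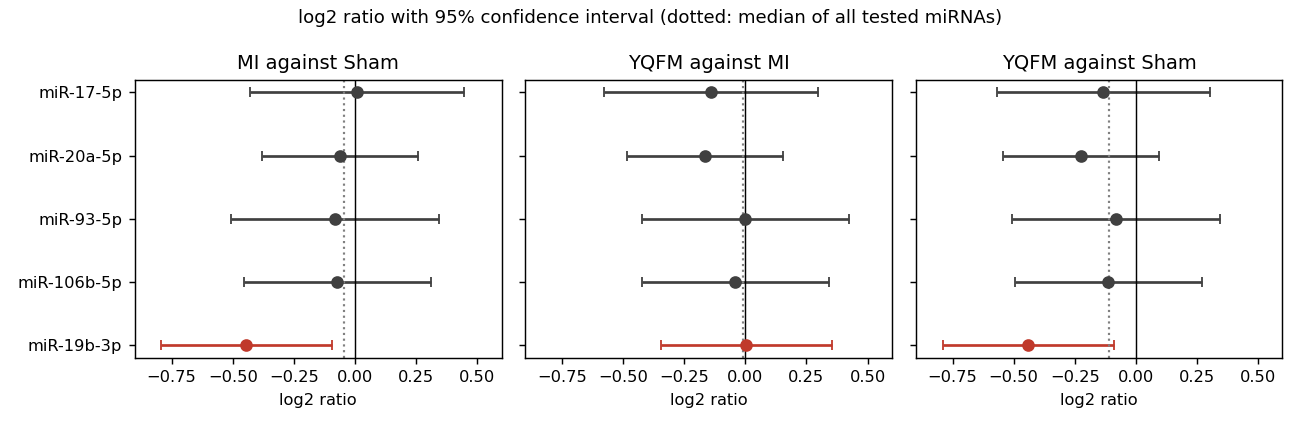
log2 ratio (horizontal axis) with 95% confidence interval from limma for the 5 detected members in the 3 comparisons, each over 12 arrays in 1 fit. The dotted line is the median over all 261 tested miRNAs. Only the intervals of miR-19b-3p (red) for MI against Sham and YQFM against Sham leave out 0.

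Counted over the members, 0 of 5 passed an adjusted p of 0.05 in MI against Sham (limma), where 11.1% of all 261 tested miRNAs did. At an unadjusted p under 0.05 the count was 1 of 5 members, where 29.5% of all tested miRNAs (77) passed. In YQFM against MI, 0 of 5 members and 0% of all tested miRNAs passed, and 0 members had an unadjusted p under 0.05, where 17.6% of all tested miRNAs (46) did. In YQFM against Sham, again 0 of 5 members and 0% of all tested miRNAs passed, with 1 member at an unadjusted p under 0.05, where 6.13% of all tested miRNAs (16) were. Student's t-test with the same adjustment called 0 members in each comparison. It is named the methods' t-test below because the paper's methods list it. From the arrays, the paper chose miRNAs by fold change and a reverse rate instead. No member lay below Sham without overlap in MI, where 11.9% of the tested miRNAs did. In YQFM, 1 of 5 members, miR-19b-3p, lay below Sham without overlap, where 6.13% of the tested miRNAs did.

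The 5 members had a median log2 ratio of -0.07 in MI and -0.13 in YQFM relative to Sham, and of -0.04 in YQFM relative to MI. Over all 261 tested miRNAs the medians were -0.05, -0.11 and -0.0085 in the same order.

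A ratio of 2 miRNAs on the same array does not change when the array is scaled by a single factor. The log2 ratio of miR-19b-3p to the mean of the 4 miR-17 seed members was formed after the values had been seen and is given without a test. With the Sham mean set to 0, the Sham arrays were at -0.13, 0.07, 0.0043 and 0.06, the MI arrays at -0.44, -0.64, -0.14 and -0.35, and the YQFM arrays at -0.59, -0.34, -0.27 and -0.0069. All MI arrays lay below all Sham arrays, although MI replicate 3 did so by a margin far under the spread of the Sham arrays. YQFM replicate 4 lay among the Sham arrays. The mean difference was -0.39 for MI against Sham, with SDs of 0.21 and 0.09, and -0.30 for YQFM against Sham. With normexp background correction these were -0.15 and -0.14, and with the total gene signal of the scanner software -0.42 and -0.71. The last 2 values include miR-17-5p, whose own log2 ratios to Sham from these totals were 0.46 in MI and 1.47 in YQFM. Its totals far exceeded its probe sums on 7 of the 12 arrays, as described at the end. Against the single members, MI lay below Sham without overlap for miR-17-5p and miR-106b-5p and overlapped with it for miR-20a-5p and miR-93-5p. YQFM did not overlap with Sham for miR-106b-5p and overlapped for the other 3. The share of ratios of other miRNAs that separate in this way is not given here. Of single tested miRNAs, 11.9% lay below Sham without overlap in MI and 6.13% in YQFM. miR-19b-3p was already the member with the largest differences from Sham. With the slide as a fixed block the MI against Sham value was 0.026, and on slide 3 the YQFM against Sham value was -0.21 with overlapping groups.

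**Figure D4:**
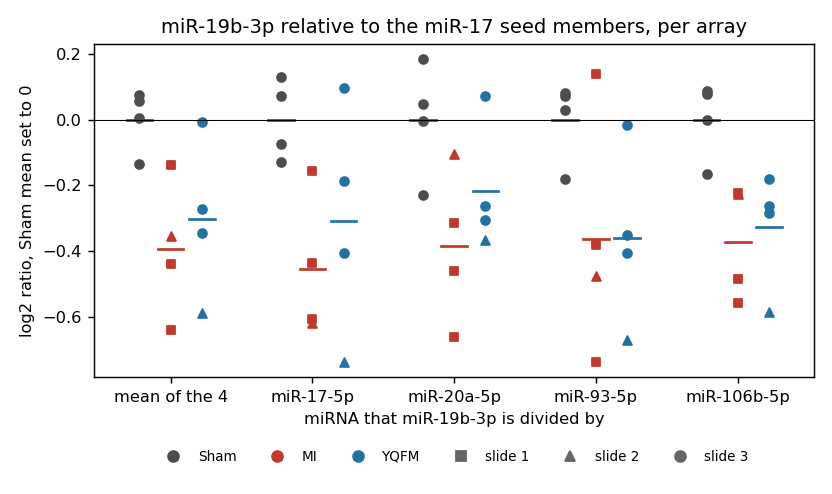
log2 ratio of miR-19b-3p to the mean of the miR-17 seed members and to each of them, per array, with the Sham mean set to 0 (vertical axis). Colours are the groups, markers the slides and short lines the group means. The group means of MI and YQFM lie below 0 against each reference, and single arrays of MI or YQFM reach into or above the range of the Sham arrays for miR-17-5p, miR-20a-5p, miR-93-5p and the mean.

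The members varied together across the 12 arrays. The Pearson correlation of scaled log2 signals was highest for miR-17-5p with miR-93-5p, at 0.88, followed by miR-17-5p with miR-106b-5p at 0.81. The 6 pairs among the miR-17 seed members lay between 0.65 and 0.88, and the 4 pairs with miR-19b-3p between 0.43 and 0.67. For comparison, the median over all 20100 pairs of miRNAs detected on all arrays was 0.15. These correlations are over 12 arrays, and on each array the members share the RNA sample and the scaling. Across the same arrays the number of detected miRNAs correlated with miR-93-5p at 0.75, miR-17-5p at 0.67 and miR-106b-5p at 0.63, and with miR-19b-3p at 0.39 and miR-20a-5p at 0.17. The part of this in the correlations was not tested.

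The miRNAs whose pattern over the 12 arrays was most like the mean of the 5 members were miR-143-3p (Pearson r = 0.88), miR-324-5p (0.84), miR-128-3p (0.83), miR-27a-3p (0.81) and miR-345-5p (0.81), among 195 miRNAs compared, whose median r was 0.35. miR-143-3p is a smooth muscle miRNA.

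The other products of the same clusters were mostly not detected on this array. Of 14 listed miRNAs on the array, chiefly the opposite strands of the same precursors, 2 were detected, miR-92a-3p and miR-25-3p, both on all arrays. miR-92a-3p, the last miRNA of the miR-17-92 cluster, had log2 ratios of -0.24 (MI to Sham), 0.07 (YQFM to MI) and -0.17 (YQFM to Sham), with adjusted p of 0.214, 0.866 and 0.723 (limma). miR-25-3p, which shares its precursor with miR-93 and miR-106b, had -0.0060, 0.028 and 0.022. Of the X-linked list, 4 miRNAs were on the array and 1 was detected, miR-20b-5p, on 11 arrays, with -0.04, -0.16 and -0.20. The X-linked cluster also holds a miR-92a gene, Mir92a2, so miR-92a-3p may come from it as well. In both lists 0 miRNAs passed the test in any comparison.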

How the data were processed

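MiRNA was measured with a 1-colour Agilent array in 12 rat hearts. The authors deposited the scanner output of Feature Extraction 10.7.1.1, whose spot intensities are background-subtracted and not scaled between arrays, and a table of processed intensities, one value per miRNA, summed over probes and set to 0.1 where no probe passed. The paper names GeneSpring for the basic analysis and mentions normalized data without naming the method.

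Groups came from title, description and group entry. Control and outlier spots were left out, spots and then probes were averaged, and arrays were scaled to the 75th percentile. Detection required 1 probe with over 50% of its spots well above background. Signals below the floor of 5.20 were set to it, on log2 2.38. Of 263 miRNAs detected on at least 2 of 4 arrays of a group, 2 lay at the floor everywhere and were left out. The other 261 were tested with limma 3.58.1 (R 4.3.3) over all arrays without covariates, with Benjamini-Hochberg adjustment. The procedure was tested on simulated data. For each member an exact permutation test (two-sided) of its values was added (scipy 1.17.1). Correlations and the list of most similar miRNAs are descriptions. Depth is a matter of signal over background here, and precision is limited by having 4 arrays per group. P-values rest on the spread between arrays within groups, with 1 array per rat. Differences between rats, arrays and slides are not separated in it.

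The members, the lists of related and marker miRNAs and the tests were chosen with earlier results of these data known. Named miRNAs were the members, the fixed lists and the 5 most similar miRNAs. The ratio of miR-19b-3p to the miR-17 seed members, the fit of the Sham slide alone, the fit with the 2 constant miRNAs and the match of the endothelial markers to their current names (miR-126a) were chosen after the data had been seen. Alternatives covered the background (normexp, offset 50), other summaries, scalings and filters, the authors' values, fits without single arrays or without the 2 arrays with conflicting labels, fits of the compared groups alone, blocks for replicate number or slide, and the methods' t-test. The replicate numbers were not treated as pairs in the main fit. Deviations of the 12 same-numbered pairs correlated between -0.64 and 0.32. Of the 12 arrays, 4 correlated best with their own number. With so few arrays these values cannot exclude a pairing. RT-PCR and cell experiments were not analysed here.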

Additional observations from a re-analysis of the deposited data

How the results depend on the processing

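Under every alternative miR-19b-3p lay below Sham, with log2 ratios from -0.54 to -0.16 for MI and from -0.50 to -0.16 for YQFM, and its adjusted p for MI ranged from 0.0433 to 0.891. The count of members called was 0 everywhere except 0 to 1 for MI against Sham when single arrays were left out, the 1 being miR-19b-3p without MI replicate 4. With the replicate number as a block (replicate block) the count was 0 in each comparison, and miR-19b-3p had -0.44 and an adjusted p of 0.0642 for MI against Sham. The median of the members for MI against Sham moved to 0.18 with the brightest probe, where the median of all tested miRNAs was 0.14. That median shifted by over 0.1 elsewhere too. It was 0.20 for YQFM against MI with the authors' values and -0.18 for MI against Sham with the slide as a fixed block. Directions near 0 and the size of ratios thus depend on the processing. All miRNAs called for MI against Sham numbered 29, against 19 with the 2 constant miRNAs kept, 18 without a filter, 13 in the groups compared, 8 with the replicate block, 7 in miRNAs detected on all arrays, 6 by the methods' t-test, 5 with normexp or quantile scaling, 4 with the percentile over all miRNAs, 1 with the brightest probe, 0 with total gene signal, authors' values, no scaling or either slide block, 53 without the conflicting arrays and 1 to 63 without single arrays. For YQFM against MI the count of 0 became 1 with normexp, 21 without the conflicting arrays and up to 33 without single arrays.

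The other members changed sign as follows, none past the threshold, and the cause was not tested. For MI against Sham, miR-20a-5p, miR-93-5p and miR-106b-5p had 0.12, 0.0092 and 0.049 with total gene signal, 0.033, 0.012 and 0.021 with the percentile over all miRNAs, 0.025, 0.0042 and 0.029 with quantile scaling, and 0.22, 0.17 and 0.18 with the brightest probe. With normexp miR-93-5p had 0.00075. miR-17-5p had -0.11 without the conflicting arrays and -0.16 and -0.093 with the slide as a fixed and a random block. For YQFM against MI, normexp gave miR-17-5p 0.034 and miR-19b-3p -0.00088, and total gene signal gave miR-17-5p 1.02, miR-19b-3p -0.10 and miR-93-5p -0.028. The authors' values gave miR-20a-5p 0.022 and miR-106b-5p 0.21, no scaling gave miR-106b-5p 0.083, and the brightest probe gave miR-19b-3p -0.14 and miR-93-5p -0.12. The fixed slide block gave miR-19b-3p -0.23, miR-20a-5p 0.034, miR-93-5p -0.031 and miR-106b-5p 0.13, and the random block miR-19b-3p -0.085, miR-93-5p -0.012 and miR-106b-5p 0.025. For YQFM against Sham, miR-93-5p had 0.029 with normexp, 0.089 with the authors' values, 0.035 with the percentile over all miRNAs, 0.029 with quantile scaling, 0.075 without scaling and 0.047 with the brightest probe. miR-17-5p had 0.046 with normexp, 1.47 with total gene signal, 0.024 without scaling and 0.028 with the brightest probe. miR-106b-5p had 0.0069 with total gene signal, 0.046 with the authors' values, 0.0028 with the percentile over all miRNAs and 0.043 without scaling. Without single arrays, the MI against Sham values ran from -0.21 to 0.031 for miR-106b-5p, -0.12 to 0.14 for miR-17-5p and -0.19 to 0.12 for miR-93-5p. Those of YQFM against MI ran from -0.13 to 0.10 for miR-106b-5p, -0.13 to 0.10 for miR-19b-3p and -0.20 to 0.11 for miR-93-5p.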

Other observations

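The total signal that the scanner software gives for a whole miRNA did not follow from its own probe totals for miR-17-5p. On 7 of the 12 arrays the total was between 47.4 and 73.1 times the sum of the 2 probe totals, at 450 to 667 units. On the other 5 arrays total and sum were equal. The 7 arrays were Sham replicates 1 and 2, MI replicates 2 and 3 and YQFM replicates 2 to 4, so that the groups held 2, 2 and 3 of them. The log2 ratios of miR-17-5p from these totals, 1.02 for YQFM against MI and 1.47 for YQFM against Sham, rest on those arrays. The ratio of miR-19b-3p to the mean of the miR-17 seed members from total gene signal includes them. The same totals exceeded the probe sum by more than 1.5 times for miR-93-5p on 3 arrays, by up to 3.00 times (and by 1.49 times in MI replicate 2), and for miR-20a-5p, miR-19b-3p and miR-106b-5p on 0 arrays. The authors' processed table does not carry this excess: in Sham replicate 1 its value for miR-17-5p is 8.82, against 580 in the gene total of the scanner software.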
